A study of Homo sapiens with 6 samples.

Results

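The genes described here are 10 genes of fatty acid synthesis and desaturation, taken by symbol from a table of 31413 genes measured by RNA-seq: ACLY, ACACA, FASN, SCD, FADS1, FADS2, ELOVL5, ELOVL7, SREBF1 and AGPAT2. All 10 had a row and all 10 passed the filter on low counts, which 17160 genes passed. The cell line was C42, usually written C4-2, which derives from the prostate cancer line LNCaP and was grown in RPMI medium with serum. Of the 6 libraries, 3 came from cells with a control shRNA (shCTR, replicates 1, 2 and 4) and 3 from cells with an shRNA against NSD2 (shNSD2, replicates 1, 2 and 3), a histone methyltransferase gene also named WHSC1. The labels name no sequence for either shRNA and do not say whether each library is a culture of its own. The p-values therefore rest on how much these libraries vary, a spread that may be technical. The series is titled for a role of NSD2 in immune infiltration of prostate tumours.

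Fatty acids are built in the cytosol from acetyl-CoA. ACLY cleaves citrate to acetyl-CoA, ACACA carboxylates it to malonyl-CoA, and FASN joins these units into palmitate. Elongases of the ELOVL family lengthen the chain in the endoplasmic reticulum, and SCD, FADS1 and FADS2 place double bonds in it. The finished acyl chains are esterified into phospholipids and triglycerides, a path in which AGPAT2 makes phosphatidic acid. The membrane-bound transcription factor SREBP1, encoded by SREBF1, activates most of these genes once it is cleaved and enters the nucleus. Prostate cancer cells are known for strong lipid synthesis.

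Promoter sequence is shown for both genes that were called higher in the shNSD2 libraries, SCD and AGPAT2, for ACACA, which was called lower, and for the regulator SREBF1. The sequences are those of RefSeq on GRCh38.p14, upstream of an annotated start and outside the exons of that gene in GENCODE 29. They lie at chr10:100346983-100347123 (plus strand), chr9:136687458-136687707 (minus strand), chr17:37406837-37407086 (minus strand, the most upstream of 3 listed starts) and chr17:17837003-17837236 (minus strand). Each is written 5′ to 3′ on the strand of the gene, and capitals mark the CCAAT box (CCAAT) and the GC box (GGGCGG) on either strand.
SCD: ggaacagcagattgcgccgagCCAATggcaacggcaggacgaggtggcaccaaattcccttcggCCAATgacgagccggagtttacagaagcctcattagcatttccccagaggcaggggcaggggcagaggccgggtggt
AGPAT2: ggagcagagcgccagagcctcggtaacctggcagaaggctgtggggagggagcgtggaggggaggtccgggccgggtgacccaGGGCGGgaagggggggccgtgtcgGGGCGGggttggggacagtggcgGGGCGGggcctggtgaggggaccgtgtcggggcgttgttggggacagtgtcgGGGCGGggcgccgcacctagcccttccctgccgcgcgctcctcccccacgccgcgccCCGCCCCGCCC
ACACA: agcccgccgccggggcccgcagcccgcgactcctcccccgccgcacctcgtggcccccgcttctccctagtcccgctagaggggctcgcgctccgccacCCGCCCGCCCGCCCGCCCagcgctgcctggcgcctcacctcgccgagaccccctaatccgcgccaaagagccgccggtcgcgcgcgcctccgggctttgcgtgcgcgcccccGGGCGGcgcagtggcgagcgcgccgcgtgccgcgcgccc
SREBF1: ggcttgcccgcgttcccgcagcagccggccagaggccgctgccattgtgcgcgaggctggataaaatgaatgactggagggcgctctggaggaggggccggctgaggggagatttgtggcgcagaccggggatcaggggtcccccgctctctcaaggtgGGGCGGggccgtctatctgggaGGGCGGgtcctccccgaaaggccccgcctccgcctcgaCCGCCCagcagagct

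In these stretches SCD held 2 CCAAT boxes, AGPAT2 held 6 GC boxes, ACACA 5 and SREBF1 3, neighbouring GC boxes in ACACA and AGPAT2 overlapping by some letters. The full 250 bases before the SCD start, part of which lies in its exons and is not printed, held 2 GC boxes besides. 4 letter patterns were searched on both strands in the 250 bases before every listed start of 9 of the 10 genes. The sterol response pattern TCACNCCAC had 0 matches in them, against 0.883% of 35116 listed promoters. At so low a share, the lack of a match in a few windows says little about these genes. In the same 250 bases ELOVL5, which was called lower, held 2 CCAAT boxes, as SCD did, and 1 E-box (CACGTG). That ELOVL5 window lies almost wholly within the annotated gene. ACLY, which was not called, also held 2 CCAAT boxes before each listed start, and the ACACA starts not printed held 1 and 2. Over all 35116 promoters, a CCAAT box was found in 32%, a GC box in 42.6% and an E-box in 6.34%. A match describes the letters in this window and shows no binding.

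The knockdown and the identity of the cells were checked first. NSD2 stood at 219, 223 and 200 CPM (counts scaled to a common library size by TMM) in shCTR 1, 2 and 4 and at 85.3, 86.4 and 89.7 CPM in shNSD2 1, 2 and 3, a log2 fold change of -1.30 (edgeR quasi-likelihood test, adjusted p = 8.03e-05). The deposited counts summed to between 19412896 and 20665494 per library. The 8 prostate luminal markers checked, KLK3 among them, summed to between 9582 and 11582 CPM. Of 6 leukocyte markers 4 had a row, summing to at most 4.10 CPM, and PTPRC was not among them. Of 6 fibroblast and endothelial markers 4 had a row, with at most 11 CPM. Of 6 adipocyte markers 3 had a row and summed to at most 1.06 CPM, with no row for ADIPOQ or FABP4. At an adjusted p under 0.05, the threshold for a call throughout, 5263 of 17160 genes were called, 2658 higher and 2605 lower. Leaving out shCTR 4 gave 4251 higher and 4011 lower, whereas leaving out any other library gave 1116 to 1491 higher and 1320 to 1734 lower.

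Of the 10 genes, 2 rose and 2 fell, and 6 did not pass the test. AGPAT2 and SCD were higher in the shNSD2 libraries, ACACA and ELOVL5 lower. In bulk RNA, fewer cells with a transcript and less of it per cell cannot be told apart. The calls amount to 4 of 10, beside 30.7% of all genes tested, and by direction to 2 of 10 beside 15.5% higher and 15.2% lower. In 5 of the 10 genes the groups did not overlap, against 46.8% of all genes tested. The median log2 fold change was -0.04 for the 10 genes and 0.01 for all genes tested. The share of calls lay near that of the table as a whole. Of the 4, only AGPAT2 passed the test whichever library was left out. ACACA, ELOVL5 and SCD each kept the call in 2 of the 6 fits without a library.

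**Figure D1:**
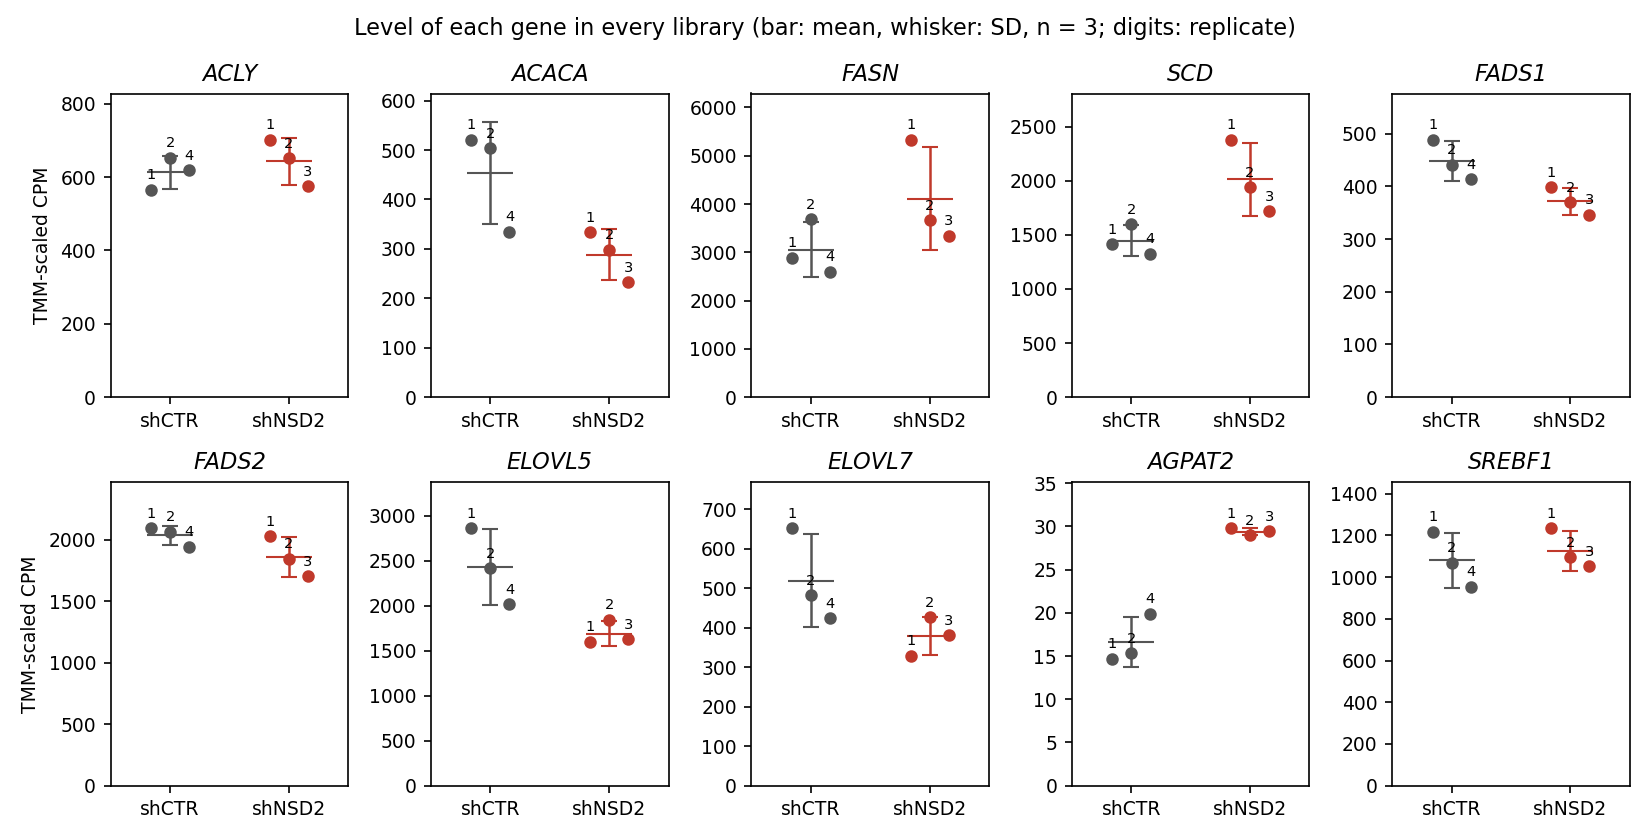
TMM-scaled CPM of the 10 genes in each of the 6 libraries, with 1 point per library, a bar at the group mean and whiskers of 1 SD (n = 3); the digit beside a point is the replicate number and each axis starts at 0. The groups stand apart for ACACA, SCD, FADS1, ELOVL5 and AGPAT2, with shCTR 4 at 335 CPM just above shNSD2 1 at 334 CPM for ACACA.

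Of the 3 genes that lead to palmitate, ACACA was called and ACLY and FASN were not. ACLY (chr17:41866908-41930542, minus strand, here and in what follows on GRCh38 from GENCODE 29), which supplies cytosolic acetyl-CoA, was at 566, 653 and 619 CPM in shCTR 1, 2 and 4 and at 701, 651 and 575 CPM in shNSD2 1, 2 and 3. The groups overlapped fully, with the highest value in shNSD2 1 and the lowest in shCTR 1. Its log2 fold change was 0.07 (95% interval -0.18 to 0.32; edgeR adjusted p = 0.665).

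ACACA (chr17:37084988-37406818, minus strand), which encodes acetyl-CoA carboxylase 1 and catalyses the committed step, was at 521 and 504 CPM in shCTR 1 and 2 but at 335 CPM in shCTR 4. The shNSD2 libraries held 334, 299 and 233 CPM. The groups did not overlap, yet on the log2 scale shCTR 4 had covered 72.6% of the distance between the average of shCTR 1 and 2 and that of the shNSD2 libraries. ACACA fell 1.57-fold, a log2 fold change of -0.65 (SE 0.178, edgeR adjusted p = 0.0207). The call was kept without shCTR 4 (log2 fold change -0.83) and without shNSD2 1, and lost without shCTR 1 (adjusted p = 0.0527), shCTR 2 (0.0839), shNSD2 2 (0.0580) or shNSD2 3 (0.0918).

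FASN (chr17:82078333-82098332, minus strand), the multifunctional fatty acid synthase, was the most counted of the 10 genes, taking 0.256% to 0.529% of all counts in a library. It stood at 2888, 3688 and 2594 CPM in shCTR 1, 2 and 4 and at 5330, 3662 and 3343 CPM in shNSD2 1, 2 and 3. The value in shNSD2 1 was far above the other 5, while shCTR 2 exceeded both shNSD2 2 and shNSD2 3. The log2 fold change of 0.43 (95% interval -0.01 to 0.87) did not pass the test (edgeR adjusted p = 0.123). Without shNSD2 1 it was 0.20. The DESeq2 Wald test alone among the tools called it (adjusted p = 0.0439).

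Of the 3 desaturase genes, SCD was called. SCD (chr10:100347124-100364834, plus strand), which makes oleate and palmitoleate from saturated chains, rose from 1447 ± 140 CPM in shCTR to 2012 ± 336 CPM in shNSD2 (SD, n = 3). Its control values were 1416, 1600 and 1326 CPM and its knockdown values 2378, 1940 and 1718 CPM, so that every shNSD2 library lay above every control. The rise was 1.39-fold, a log2 fold change of 0.48 (SE 0.146, edgeR adjusted p = 0.0322). Removing shNSD2 1, the highest library, gave 0.34 and an adjusted p of 0.134. The call was lost as well without shCTR 1 (0.0590), shCTR 2 (0.0605) or shNSD2 2 (0.0828). A processed pseudogene, SCDP1, had at most 12 counts in a library beside at least 25444 for SCD.

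FADS1 (chr11:61799625-61829318, minus strand) and FADS2 (chr11:61792980-61867354, plus strand), the delta-5 and delta-6 desaturases that make long polyunsaturated chains, were not called. FADS1 was at 488, 441 and 413 CPM in shCTR 1, 2 and 4 and at 398, 370 and 346 CPM in shNSD2 1, 2 and 3. All 3 knockdown libraries lay below all controls, with a log2 fold change of -0.27 (95% interval -0.50 to -0.04; edgeR adjusted p = 0.0735). It passed the test without shCTR 4 (adjusted p = 0.0102), and with the correction for GC content and exon length the value was -0.13. FADS2 was at 2093, 2067 and 1945 CPM in the controls and at 2027, 1845 and 1702 CPM in the knockdown libraries. These groups overlapped, with a log2 fold change of -0.13 (95% interval -0.40 to 0.13; adjusted p = 0.426). The 2 genes lie on opposite strands of chromosome 11 and share 490 bp of exon in GENCODE 29, which is 4.79% of the exon length of FADS1, so with no stated strand setting some reads cannot be assigned between them.

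Of both elongase genes, ELOVL5 was called and ELOVL7 was not. ELOVL5 (chr6:53267398-53349179, minus strand), which lengthens polyunsaturated chains, fell from 2863, 2422 and 2022 CPM in shCTR 1, 2 and 4 to 1603, 1848 and 1627 CPM in shNSD2 1, 2 and 3. The groups did not overlap, and shCTR 4 had covered 59.5% of the distance to the knockdown mean. The fall was 1.44-fold, a log2 fold change of -0.52 (SE 0.148, edgeR adjusted p = 0.0232). Its call was lost without shCTR 2 (adjusted p = 0.0753), shNSD2 1 (0.0910), shNSD2 2 (0.0563) or shNSD2 3 (0.0952).

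ELOVL7 (chr5:60751791-60844389, minus strand), an elongase of saturated chains, was at 651, 482 and 424 CPM in the controls and at 329, 427 and 381 CPM in the knockdown libraries. The highest value was in shCTR 1, and shNSD2 2 was slightly above shCTR 4, so the groups overlapped. Its log2 fold change of -0.45 had an interval of -0.81 to -0.10, and the edgeR adjusted p of 0.0520 missed the threshold. The call depended on the setting. It was made with DESeq2 size factors (adjusted p = 0.0491), by the DESeq2 Wald test (0.0133) and with no low-count filter (0.0442). It was also made without shCTR 4 (0.00128). With the replicate number as a block (0.00254) it was made too, shCTR 4 and shNSD2 3 adding nothing to that fold change. It was not made with upper-quartile factors (0.0644), plain library size (0.0565), limma-voom (0.0561) or a filter of at least 1 CPM (0.0513). Nor was it made with the correction for GC content and exon length (log2 fold change -0.33, adjusted p = 0.100), or without any library other than shCTR 4.

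AGPAT2 (chr9:136673143-136687423, minus strand), which encodes an acyltransferase that turns lysophosphatidic acid into phosphatidic acid, showed the clearest separation. It was at 14.7, 15.3 and 19.9 CPM in shCTR 1, 2 and 4 and at 29.8, 29.01 and 29.4 CPM in shNSD2 1, 2 and 3. The knockdown libraries differed from one another by less than 1 CPM, and shCTR 4 had covered 42.1% of the distance to them. AGPAT2 rose 1.77-fold, from 16.6 ± 2.86 to 29.4 ± 0.386 CPM (SD, n = 3), a log2 fold change of 0.82 (SE 0.119, edgeR adjusted p = 0.00171). With a library left out the change ran from 0.73 to 0.97 and was called in all 6 fits. It was the least abundant of the 10 genes, with 300 to 607 counts in a library. Its transcript is 65.9% G and C, and with a correction for GC content and exon length the log2 fold change was 0.50 (adjusted p = 0.00521).

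SREBF1 (chr17:17810399-17837002, minus strand), the regulator, was at 1218, 1069 and 954 CPM in shCTR 1, 2 and 4 and at 1234, 1095 and 1052 CPM in shNSD2 1, 2 and 3. The groups overlapped almost fully. Its log2 fold change was 0.06 with a 95% interval of -0.22 to 0.34 (edgeR adjusted p = 0.735), and its sign turned under some alternatives. The counts are per gene, so the 1a and 1c forms of SREBP1 are summed, and the cleavage that activates the protein is not measured by RNA. SREBF1 shares 556 bp of exon, 6.92% of its length, with RAI1 on the opposite strand.

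**Figure D2:**
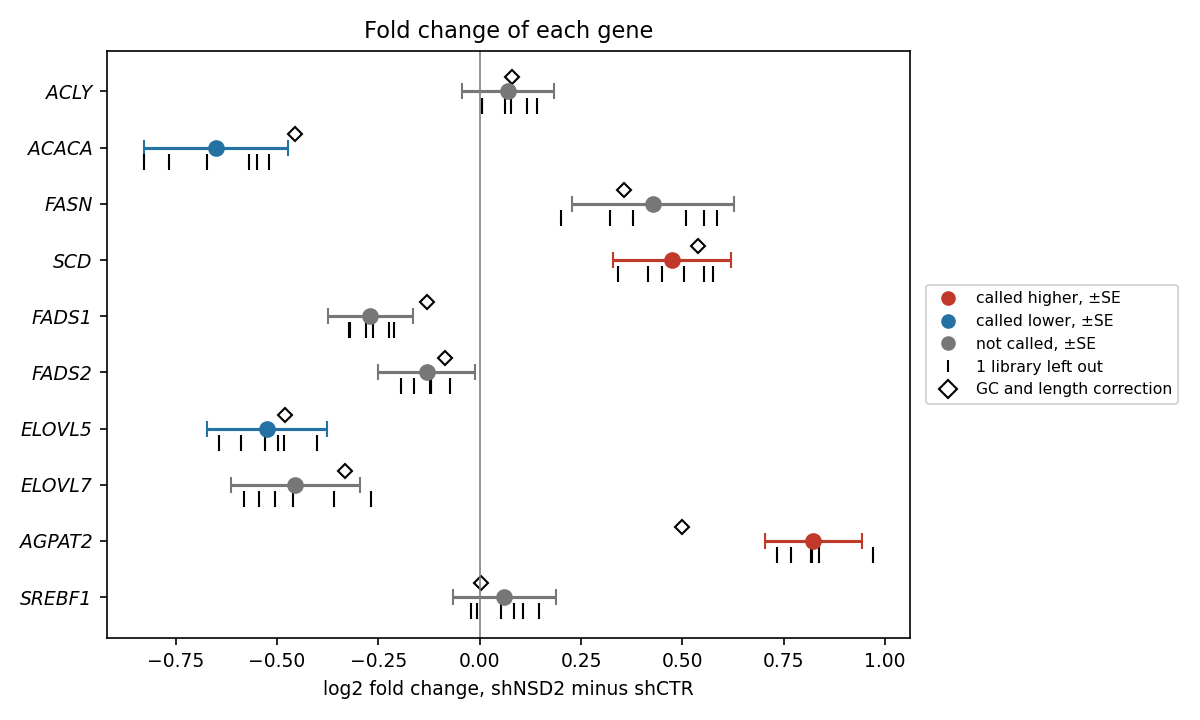
Log2 fold change of each gene, shNSD2 minus shCTR, as a point with its SE; vertical ticks give the value with 1 library left out and open diamonds the value after a correction for GC content and exon length. AGPAT2 at 0.82 lies farthest to the right and ACACA at -0.65 farthest to the left, and only SREBF1 has ticks on both sides of 0.

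Between genes, levels were compared per kilobase of merged exon. In shCTR, ELOVL5 had the highest level at 639 ± 110 CPM per kb, followed by FASN at 326 ± 60.4, SCD at 270 ± 26 and FADS2 at 185 ± 7.17 (SD, n = 3). SREBF1 (135 ± 16.5), ACLY (117 ± 8.38) and ELOVL7 (113 ± 25.8) came next. FADS1 (43.7 ± 3.70), ACACA (34.8 ± 7.90) and AGPAT2 (9.25 ± 1.59) were lowest. The ranges over the 3 control libraries overlapped between FASN and SCD, between SREBF1 and ACLY and between ACLY and ELOVL7, so those neighbours were not separated.

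The order of mean levels in shNSD2 was the same. There the ranges of ELOVL5 (420 to 485 CPM per kb) and FASN (357 to 569 CPM per kb) overlapped, which they did not in the controls. ELOVL5 had a higher level per kb than 99.9% of the genes tested in shCTR, and AGPAT2 than 70.3%. Merged exon length can exceed that of the transcript expressed, so these levels are approximate.

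**Figure D3:**
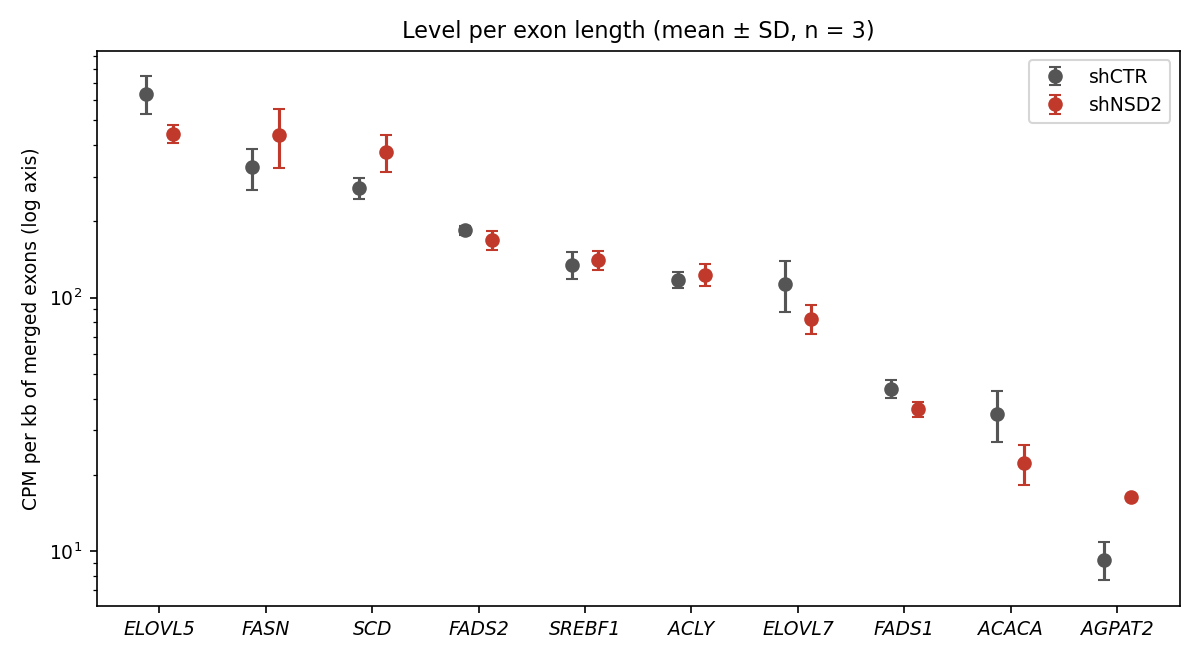
Level of each gene in CPM per kilobase of merged exon on a log axis, mean and SD over 3 libraries, for shCTR (grey) and shNSD2 (red). ELOVL5 and FASN stood apart in shCTR, at 639 and 326 CPM per kb, and side by side in shNSD2, at 444 and 439 CPM per kb.

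The genes also varied within each group, and in a shared pattern. shNSD2 1 had the highest knockdown value for 8 of the 10 genes, where 40.6% of the 11218 genes averaging 5 CPM or more did so. The exceptions were both elongases, for which shNSD2 1 was the lowest knockdown library. shNSD2 3 was lowest for 7 of the 10 genes, against 39.2% of those 11218 genes. Among controls, shCTR 4 was lowest for 8 of the 10 genes, against 37.5%, and highest for AGPAT2. These shares describe 10 genes of the same libraries and carry no test.

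FASN and SCD both stood highest in shNSD2 1 and lowest in shCTR 4. Relative to the mean of the 6 libraries on the log2 scale, shNSD2 1 was 0.61 higher for FASN and 0.49 higher for SCD, and shCTR 4 was -0.43 and -0.35. ACACA and FADS1 had the same order of all 6 libraries, from shCTR 1 at the top to shNSD2 3 at the bottom. For ACACA the deviation was 0.55 in shCTR 1, 0.50 in shCTR 2 and -0.61 in shNSD2 3. Together the 10 genes took 1.27%, 1.30% and 1.05% of all counts in shCTR 1, 2 and 4 and 1.43%, 1.22% and 1.11% in shNSD2 1, 2 and 3. The groups overlapped on that sum.

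**Figure D4:**
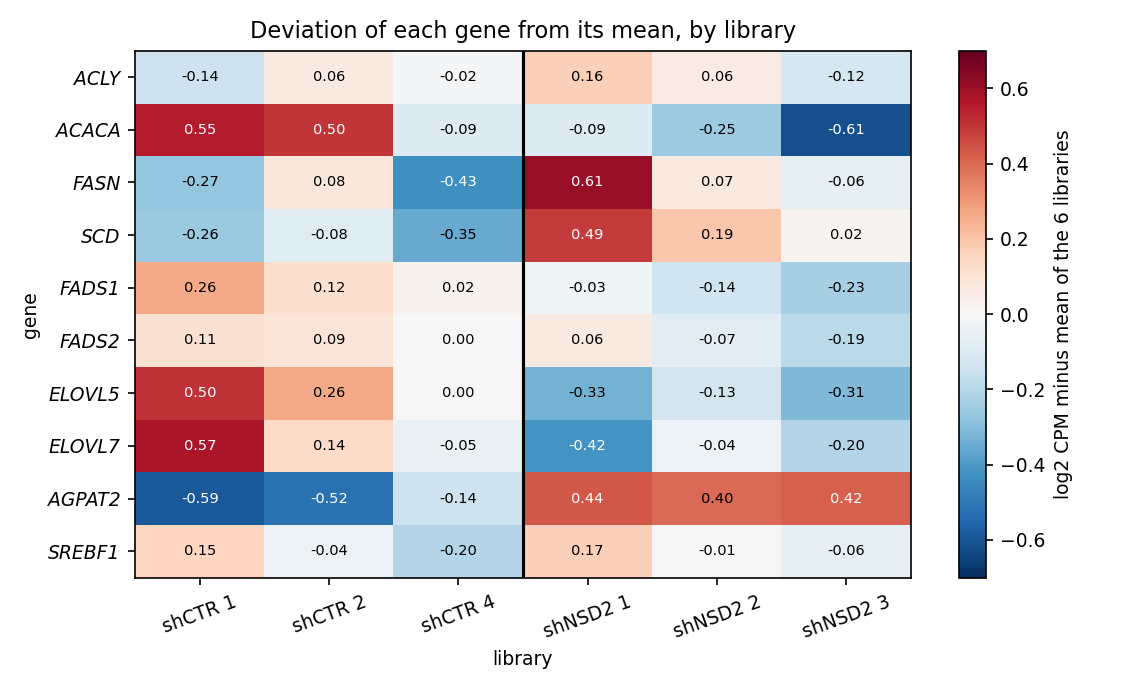
Log2 CPM of each gene minus its mean over the 6 libraries, by library, with the value written in each cell and a line between shCTR and shNSD2. shNSD2 1 is the reddest column for FASN (0.61) and SCD (0.49), and AGPAT2 is the row in which the 3 shNSD2 libraries are closest to each other (0.40 to 0.44).

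For FASN and SREBF1, the genes nearest in pattern were sought among the 11218 genes averaging 5 CPM or more, by the root mean square difference of centred log2 CPM over the 6 libraries. For FASN they were KIF3C (0.08), GCNT1 (0.08) and ABR (0.09). GCNT1, a glycosyltransferase gene, was at 55.6, 71.9 and 55.2 CPM in the controls and at 98.1, 74.7 and 71.0 CPM in shNSD2 1, 2 and 3. Unlike FASN it was called (log2 fold change 0.42, edgeR adjusted p = 0.0455). It shares with FASN the high value in shNSD2 1 and, among controls, in shCTR 2. For SREBF1 they were HELZ2 (0.03), POLG2 (0.03) and INPP5E (0.03), which like SREBF1 were not called.

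The rest of the pathway was described by 9 lists of 117 genes. The table held 115 of them and the filter kept 108. There were 28 rises and 25 falls, or 49.1% called, beside 30.7% of all genes tested. The lists were chosen with earlier results of these data known, and the shares were not matched for expression level. The difference between them is therefore no test of the pathway. Their median log2 fold change was 0.04. By direction, the citrate and NADPH, malonyl-CoA and AMPK lists held rises and no falls, and the elongation cycle falls and no rises. The share called was 54.5% for citrate and NADPH, 27.3% for malonyl-CoA, 37.5% for AMPK and 55.6% for elongation. Those of the malonyl-CoA and AMPK lists lay near the 30.7% of all genes called in either direction. All calls in these lists were rises, 3 in each, and of all genes 15.5% were called higher and 15.2% lower. By direction their shares thus lay above that of all genes, on few genes. The 10 genes, with ACACA as a called fall, were not counted in these lists.

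Among 11 genes of citrate and NADPH supply, 6 rose and 0 fell, with a median log2 fold change of 0.32. By edgeR, DESeq2 and limma-voom alike, 9 were higher and 0 lower at an unadjusted p under 0.05. With the correction for GC content and exon length, edgeR had 6 higher and 0 lower at that threshold, and 5 rises were called. ACSS2, which makes acetyl-CoA from acetate, rose from 45.5, 58.5 and 55.1 CPM in shCTR 1, 2 and 4 to 101, 77.7 and 81.2 CPM in shNSD2 1, 2 and 3 (log2 fold change 0.71, edgeR adjusted p = 0.00358). ME1, the cytosolic malic enzyme that yields NADPH, rose by 0.76 (adjusted p = 0.00509). The mitochondrial citrate carrier gene SLC25A1 rose by 0.45 (adjusted p = 0.0153), a value of 0.15 with the correction for GC content and exon length (adjusted p = 0.245). IDH1, the most abundant of the list, was not called (0.32, adjusted p = 0.0750), but with that correction it was (0.40, adjusted p = 0.0303). Leaving out shCTR 4 brought the rises to 9. Leaving out shCTR 1 or shNSD2 2 brought them to 3, and leaving out shCTR 2, shNSD2 1 or shNSD2 3 to 2.

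Genes that modulate malonyl-CoA or belong to mitochondrial fatty acid synthesis held 3 rises and 0 falls among 11 tested, with a median of 0.18. At an unadjusted p under 0.05, 5 were higher and 0 lower by edgeR and limma-voom, and 4 and 0 by DESeq2. HSD17B8, a subunit of the mitochondrial ketoacyl reductase, averaged 18.5 ± 3.16 CPM in the controls and rose to 31.4 ± 1.12 CPM (SD, n = 3) with an edgeR adjusted p of 0.00234. MECR, the mitochondrial enoyl reductase, rose by 0.47 and MID1IP1, an activator of acetyl-CoA carboxylase, by 0.46 on the log2 scale (adjusted p = 0.0112 and 0.0152). Leaving out shCTR 4 gave 6 rises, leaving out shNSD2 1 gave 2, and leaving out shCTR 2 or shNSD2 3 gave 1.

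In the elongation cycle, 5 of 9 tested genes fell and 0 rose, with a median of -0.42. By each of edgeR, DESeq2 and limma-voom, 7 were lower and 0 higher at an unadjusted p under 0.05. With the correction for GC content and exon length, edgeR had 5 lower and 1 higher at that threshold, and 4 falls and 0 rises were called. That correction with the replicate number as a block gave 6 falls and 1 rise. HACD2, a dehydratase of the cycle, fell from 633, 485 and 395 CPM in shCTR 1, 2 and 4 to 253, 293 and 255 CPM in shNSD2 1, 2 and 3 (log2 fold change -0.92, edgeR adjusted p = 0.00333). Its relative HACD3 fell by 0.54 (adjusted p = 0.0121), a call lost without shNSD2 3. ELOVL4, the elongase of very long chains, fell from 2.39 ± 0.433 to 0.386 ± 0.232 CPM (SD, n = 3; adjusted p = 0.00133). A floor of 3 counts is 0.145 to 0.155 CPM, at which shNSD2 1 stood for ELOVL4, so the size of that fall is loosely set. Leaving out shCTR 1 or shNSD2 1 gave 3 falls and leaving out shNSD2 3 gave 2. Leaving out shCTR 4 gave 6 falls and 1 rise.

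Of 10 tested genes of desaturation and its electron transfer, 2 rose and 1 fell, with a median of -0.05. FADS3, the neighbour of FADS1 and FADS2, rose to 43.2 ± 1.34 CPM in shNSD2 against 33.5 ± 2.93 CPM in shCTR (SD, n = 3), with an edgeR adjusted p of 0.0136. CYB5A, the cytochrome b5 that feeds electrons to the desaturases, rose by 0.36 (adjusted p = 0.0187). DEGS1, the sphingolipid desaturase and the most abundant of the list, fell by 0.44 (adjusted p = 0.0237). Leaving out shCTR 4 gave 4 rises and leaving out shNSD2 1 or shNSD2 3 gave 1. FADS3 and CYB5A both lost their call without shCTR 2 or shNSD2 2, and the fall was lost without shCTR 2 or any 1 of the shNSD2 libraries.

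The genes that process SREBP or drive lipogenic transcription were split, 4 of 15 rising and 4 falling, with a median of 0.08. MLXIPL, which encodes the carbohydrate-responsive factor ChREBP, rose from 6.11, 5.74 and 5.16 CPM in shCTR 1, 2 and 4 to 14.2, 10.8 and 12.7 CPM in shNSD2 1, 2 and 3 (log2 fold change 1.15, edgeR adjusted p = 7.98e-04). NR1H2, the liver X receptor beta gene, rose by 0.57 (adjusted p = 0.00723). SREBF2, the sterol-directed relative of SREBF1, was 504 ± 19.2 CPM in shCTR and rose to 681 ± 103 CPM in shNSD2 (SD, n = 3; adjusted p = 0.0227), a call lost without shCTR 2, shNSD2 1 or shNSD2 2. PPARG, a nuclear receptor of adipogenesis, fell from 5.19 ± 1.08 CPM to 2.12 ± 0.476 CPM (adjusted p = 0.00334). MBTPS1 (-0.41) and MBTPS2 (-0.86), the proteases that release SREBP, were both among the falls, and INSIG1 (0.58), which retains SREBP in the endoplasmic reticulum, among the rises. SCAP (-0.17, edgeR adjusted p = 0.260) and INSIG2 (0.07, adjusted p = 0.601), of the same list, were not called. All of these processing genes were named after their values were seen. The call of INSIG1 was lost without shCTR 1 or shNSD2 1 and that of MBTPS1 without shNSD2 3. Leaving out shNSD2 1 gave 2 rises in the list, and leaving out shNSD2 3 gave 2 falls.

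AMPK, the kinase that inactivates acetyl-CoA carboxylase by phosphorylation, had 3 rises and 0 falls among 8 genes of its subunits and upstream kinases, with a median of 0.23. At an unadjusted p under 0.05, 4 were higher and 0 lower by edgeR, DESeq2 and limma-voom. PRKAA2, a catalytic subunit, was 6.05 ± 1.51 CPM in shCTR and rose to 10.4 ± 0.646 CPM in shNSD2 (SD, n = 3; edgeR adjusted p = 0.00777). CAMKK2, an upstream kinase gene, rose by 0.66 (adjusted p = 0.0142), a call lost without shNSD2 1. The rise of STK11, another upstream kinase gene, was 0.27 (adjusted p = 0.0346). It kept its call in 1 of the 6 fits without a library, the one without shCTR 4, and was not called with the correction for GC content and exon length (0.18, adjusted p = 0.146). PRKAA1, the more abundant catalytic subunit, was not called (0.06, adjusted p = 0.587), but with that correction it was (0.25, adjusted p = 0.0446). The correction gave 5 rises in the list. Leaving out shNSD2 1 gave 1 rise, and leaving out shCTR 4 gave 4 rises and 1 fall.

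Glycerolipid acyltransfer, the path to which AGPAT2 belongs, held 4 rises and 7 falls among 20 tested genes, with a median of -0.16. LPCAT1, which remodels phosphatidylcholine, fell from 59.7, 50.9 and 34.2 CPM in shCTR 1, 2 and 4 to 27.1, 26.2 and 20.5 CPM in shNSD2 1, 2 and 3 (log2 fold change -0.97, edgeR adjusted p = 0.00457). LCLAT1, an acyltransferase of lysocardiolipin, fell by 0.64 and MBOAT2, the most abundant of the list, by 0.53 (adjusted p = 0.00665 and 0.0116). The call of MBOAT2 was lost without shNSD2 1 and with the GC and length correction (-0.32, adjusted p = 0.0567). DGAT1, which makes triglyceride, rose by 0.40 (adjusted p = 0.00827), and with the correction for GC content and exon length the value was 0.22 and not called (adjusted p = 0.0669). Of the other AGPAT genes tested, AGPAT4 rose (0.97), AGPAT5 fell (-0.55) and AGPAT3 was not called (-0.13, adjusted p = 0.266). These 3 were named after their values were seen, and the call of AGPAT4 was lost without shCTR 1 or shNSD2 1. Leaving out shCTR 2 gave 2 rises in the list, and leaving out shNSD2 1 gave 1.

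Of 10 tested genes of fatty acid activation, 3 rose and 3 fell, with a median of -0.24. SLC27A1 and SLC27A5, which encode acyl-CoA synthetases of the fatty acid transport family, rose by 0.56 and 0.50 (edgeR adjusted p = 0.00329 and 0.00503). ACSL4, which activates arachidonate, fell from 5.87 ± 2.25 to 2.09 ± 0.274 CPM (SD, n = 3; adjusted p = 0.00506). ACSL3, the most abundant of the list, was not called (-0.27, adjusted p = 0.208). Leaving out shCTR 4 gave 5 falls, and leaving out shNSD2 1 gave 2 rises and 2 falls.

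Sterol synthesis genes and 2 other sterol-controlled SREBP targets held 3 rises and 5 falls among 14 tested, with a median of -0.09. FDFT1, squalene synthase, rose from 335, 431 and 446 CPM in shCTR 1, 2 and 4 to 906, 664 and 659 CPM in shNSD2 1, 2 and 3 (log2 fold change 0.88, edgeR adjusted p = 0.00367). MVD rose by 0.46, whereas SC5D, which encodes a desaturase of late sterol synthesis, fell by 0.58 (adjusted p = 0.00674 and 0.00895). Leaving out shCTR 1, shCTR 2 or shNSD2 3 gave 2 falls, and leaving out shNSD2 1 or shNSD2 2 gave 3. FDFT1 and SREBF2, as FASN and SCD, had their highest value in shNSD2 1.

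**Figure D5:**
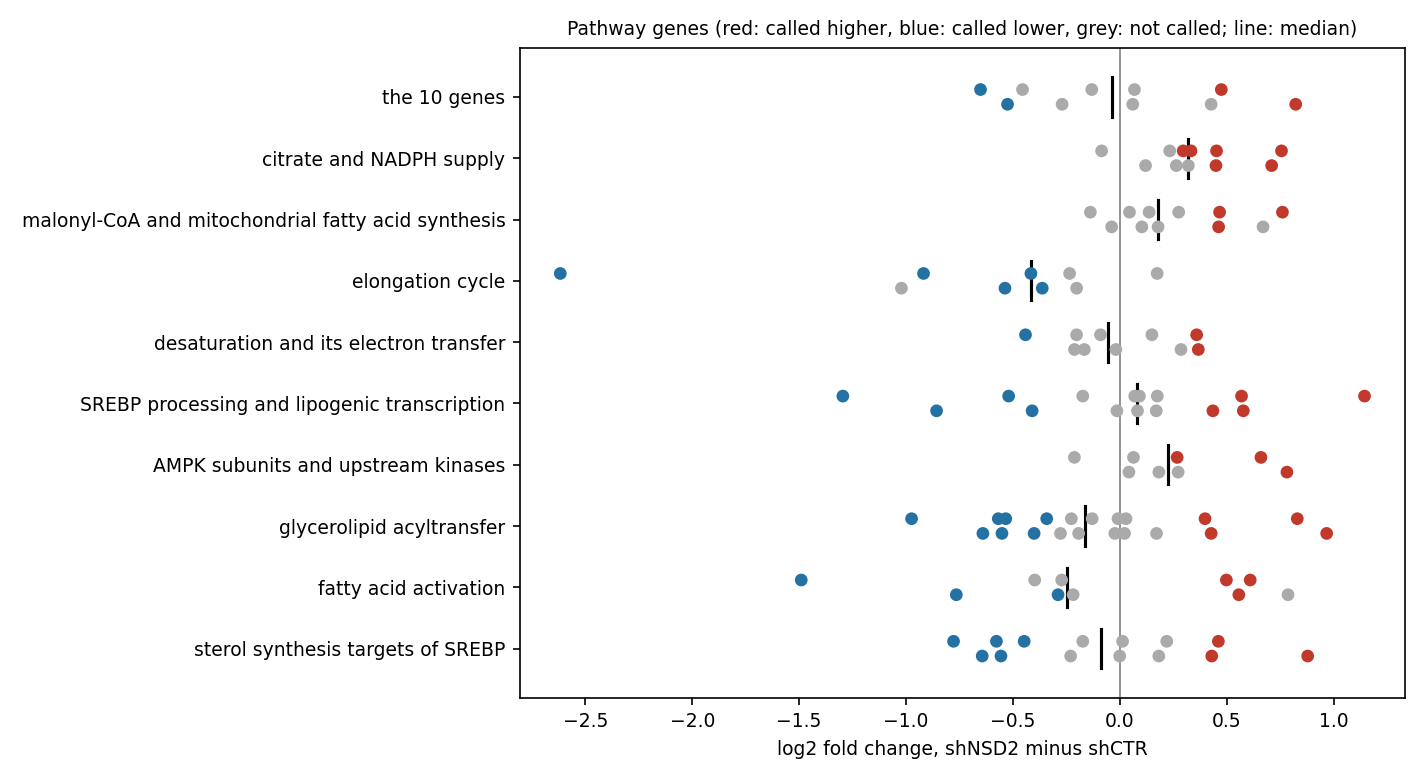
Log2 fold change, shNSD2 minus shCTR, of the 10 genes (top row) and of the tested genes of 9 pathway lists, 1 point per gene, red where called higher, blue where called lower and grey where not called, with a line at each list's median. The citrate and NADPH supply list (median 0.32), the malonyl-CoA and mitochondrial list and the AMPK list have no blue point, and the elongation cycle has no red one (median -0.42).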

How the data were processed

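RNA was sequenced from 6 libraries of C42 cells, 3 shCTR and 3 shNSD2. The authors deposited raw read counts per gene, with no normalization. Per the submitters' processing notes they used CASAVA 1.8.2, STAR 2.6.0a and GRCh38. The counting program, annotation and strand setting were not named in any source used here. Per the labels' protocols, RNA came from a Qiagen kit and libraries from a KAPA mRNA kit.

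The test was edgeR's (4.0.16, under R 4.3.3), after filterByExpr by group and TMM scaling, in its quasi-likelihood form with Benjamini-Hochberg adjustment over 17160 genes. The SE was the log2 fold change over the root of F, and 95% intervals used the t distribution with the test's degrees of freedom. Positions, merged exon length and the GC content of the longest transcript came from GENCODE 29, which held 31313 of 31413 genes. Alternatives were other scaling factors, DESeq2 1.42.0, limma-voom (limma 3.58.1), other filters, the replicate number as a block, a GC and length correction and each library left out. With the block, shCTR 4 and shNSD2 3 share their number with no other library and add nothing to the fold change. Genes were named by a rule: the 10 genes, NSD2, and from each pathway list the 3 called genes of smallest p and the most abundant one. 1 gene that this rule names is not reported here. The members and lists were chosen with earlier results of these data known. On simulated counts of 17160 genes, with 16896 in the fit, the fit recovered 57.3% of genes changed 1.5-fold and 89.7% of those changed 2-fold, with 6 false calls among 148. The simulation gave all genes the same dispersion, drew the libraries independently and changed 96 and 97 of the genes in the fit. Its rates therefore need not hold for these data, in which far more genes were called and shCTR 4 stood apart. A floor of 3 counts was 0.145 to 0.155 CPM, which covers counting error only. The RefSeq promoter table was matched by symbol for 9 of the 10 genes, and FASN was not matched.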

Additional observations from a re-analysis of the deposited data

How the results depend on the processing

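Over the 10 genes and 16 alternative settings, 136 of 160 values kept their direction and their side of the threshold, 12 lost a call, 9 gained one and 3 turned in sign. All 3 turns were of SREBF1, at -0.0138 with the GC and length correction and replicate block, -0.0209 without shCTR 4 and -0.0056 without shNSD2 1, none of them called. With a library left out SREBF1 ran from -0.0209 to 0.146. All 12 losses came with a library left out, which leaves fewer libraries in the fit. With a library left out, 1 to 2 of the 10 genes were higher and 0 to 4 lower. Where 0 were lower by edgeR, 3 had an unadjusted p under 0.05. Other settings gave 2 higher, and 2 or 3 lower, except the DESeq2 Wald test, which gave 3 higher and 4 lower. The cause was not tested. The same fits called 13 to 38 pathway genes higher and 14 to 33 lower, and 1116 to 4251 of all genes higher and 1320 to 4011 lower. NSD2 was called in every setting run, between -1.36 and -1.01. No scaling alternative moved the median of all genes by over 0.1.

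Same-numbered libraries of the 2 groups did not deviate together over 11218 genes (correlation 0.04 for number 1 and -0.17 for number 2). Pairs of other numbers ran from -0.43 (shCTR 2 with shNSD2 3) to 0.47 (shCTR 2 with shNSD2 1), with 0.42 for shCTR 4 with shNSD2 3. The deviations were taken from each group's own mean, which forces a mix of signs among the pairs. The labels do not say that a number marks a shared batch. With the replicate block, 3242 genes were higher and 3001 lower, and among the 10 genes 2 were higher and 3 lower, ELOVL7 being added (log2 fold change -0.58, adjusted p = 0.00254). In that fit shCTR 4 and shNSD2 3 are each alone in a block, so the fold changes rest on numbers 1 and 2 only. Little is then left to estimate the spread, and the calls of that fit are not those of all 6 libraries.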
